A study of Mus musculus with 24 samples.

Results

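The 8 genes described here were those that hold back or promote mineral deposition in soft tissue (Abcc6, Enpp1, Nt5e, Mgp, Alpl and Runx2) and a pair of enzymes best known from the bone-resorbing osteoclast (Acp5 and Ctsk). They were chosen by symbol, and each of the 8 was found once among the 25369 genes listed. After the filter on low counts, 7 of the 8 were among the 14789 genes tested, and Abcc6 was not. Transcripts were counted in the left quadriceps, a thigh muscle, of mice aged 25 weeks. Lama2-CMD mice model a congenital muscular dystrophy that follows from loss of a laminin chain of the muscle basement membrane, and the labels do not name the Lama2 allele. The groups were D2 CMD, B6 CMD, 67 CMD and 87 CMD, and the healthy D2 WT, B6 WT, 67 WT and 87 WT. D2 is DBA/2J and B6 is C57BL/6J. The strains 67 and 87 carry the names CMD-67 and CMD-87 in the labels and BXD-67 and BXD-87 in the design text. BXD lines were bred by crossing B6 with D2 and inbreeding the offspring. There were 3 libraries in each of the 8 groups, numbered 1 to 24 over the series.

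Whether soft tissue mineralises depends on the balance between phosphate and its inhibitors. Pyrophosphate, made outside the cell from ATP by ENPP1, blocks the growth of mineral crystals, and the alkaline phosphatase encoded by Alpl destroys it. ABCC6, acting mainly in the liver, supplies the ATP, and the ectonucleotidase encoded by Nt5e turns the remaining AMP into adenosine. Matrix Gla protein, encoded by Mgp, is a secreted inhibitor that protects arteries and cartilage. RUNX2 is the transcription factor that commits cells to bone formation, and DBA/2J mice are known to calcify heart and skeletal muscle, with a variant of Abcc6 as a contributing factor.

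Each library held between 32292613 and 51715975 total exon reads, and between 15477 and 16405 genes were detected. The skeletal muscle markers were abundant in every library, with 9 of them summing to 85232 CPM or more (CPM are reads scaled by the library size after TMM normalisation). Lama2 itself was lower in CMD than in WT muscle of B6 (log2 fold change -1.004, adjusted p = 0.00642) and 87 (-0.89, adjusted p = 0.00939). It was not called in D2 (-0.37, adjusted p = 0.244) or 67 (0.04, adjusted p = 0.912), and the counts do not show whether the transcript is functional. In 4 D2 libraries the Y-linked reads went against the sex label. By these reads 2 of the 3 D2 CMD libraries and 0 of the 3 D2 WT libraries were from males, where the labels give 0 males in D2 CMD and 2 in D2 WT. The sexes read in each D2 group, library by library, are thus those labelled for the other one, and Lama2 was not called as lower in D2 CMD. The direction of every D2 result rests on the genotype labels. Of the 408 genes called as raised by CMD in B6, 67 and 87 alike, whose libraries are separate from those of D2, 327 lay higher in the libraries labelled D2 CMD, with 211 called higher and 20 called lower. Of the 485 called as lowered in these 3 strains, 461 lay lower in D2 CMD, with 226 called lower and 1 called higher. In D2 sex and genotype can be told apart only in part. Sex was uneven in the other strains too, where labels and Y-linked reads gave the same sexes. All 67 CMD libraries (10, 11 and 12) were female, while 67 WT held a male library, 7. The male libraries were 4 and 6 in B6 CMD and 1 in B6 WT, and 17 and 18 in 87 CMD and 13 in 87 WT. Replicates were least alike in 87 CMD, with a mean pairwise correlation of log2 CPM of 0.954, where library 16 stood apart, and in D2 CMD, with 0.966. For several calls that changed without library 16 or D2 CMD library 23, a value without it is given. Differences between strains in genes other than the members come from the main fit only. The Lama2 change in 87 was -0.74 without both (adjusted p = 0.0509).

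The promoters printed here are those of Runx2, Enpp1 and Ctsk, the 3 members with a called rise in CMD muscle that have an entry in the table, Runx2 in D2, Enpp1 in 67 and Ctsk in 3 strains. They are RefSeq sequences of the build GRCm38.p6, each running from 250 bases before to 50 bases after a transcript start, printed 5′ to 3′ on the strand of the gene. Of the 8 members, 6 matched the table, with 9 starts. Capitals mark the core site of RUNX factors, TGTGGT, or its reverse complement ACCACA.
Runx2 promoter (chr17:44814578-44814877, minus strand): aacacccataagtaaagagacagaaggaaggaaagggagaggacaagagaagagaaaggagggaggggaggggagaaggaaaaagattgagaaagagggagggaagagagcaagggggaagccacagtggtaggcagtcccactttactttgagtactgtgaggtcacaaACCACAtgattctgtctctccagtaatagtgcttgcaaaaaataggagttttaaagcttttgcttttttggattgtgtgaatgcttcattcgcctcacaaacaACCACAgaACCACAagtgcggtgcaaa
Enpp1 promoter (chr10:24712110-24712409, minus strand): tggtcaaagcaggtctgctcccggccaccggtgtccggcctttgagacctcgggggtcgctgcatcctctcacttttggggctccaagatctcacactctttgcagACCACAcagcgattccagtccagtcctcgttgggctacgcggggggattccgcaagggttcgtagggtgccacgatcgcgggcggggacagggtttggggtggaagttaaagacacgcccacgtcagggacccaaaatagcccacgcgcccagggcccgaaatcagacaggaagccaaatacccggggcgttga
Ctsk promoter (chr3:95498960-95499259, plus strand): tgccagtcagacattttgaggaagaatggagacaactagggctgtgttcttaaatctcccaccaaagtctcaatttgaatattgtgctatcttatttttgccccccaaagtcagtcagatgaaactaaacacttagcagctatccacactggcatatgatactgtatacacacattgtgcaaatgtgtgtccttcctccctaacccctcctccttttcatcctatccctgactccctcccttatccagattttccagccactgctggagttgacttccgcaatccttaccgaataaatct
The Runx2 sequence held 3 matches, at -80, 23 and 31 bases from its start. By comparison, 0.183% of the 32851 promoters in the table held 3 or more. The Enpp1 sequence held 1 match, at -144 bases, and 16.8% of all promoters held at least 1. The other 7 starts, that of Ctsk included, held none. The AP-1 site TGANTCA, searched on both strands, was in none of the 9 and in 7.81% of all promoters. These matches describe the letters of the windows only.

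Per length, as the authors' TPM (reads scaled by exon length and then to a fixed library sum), Mgp was the most abundant member, with a median of 69.1 TPM over the 24 libraries. Ctsk followed with 7.52 TPM, Acp5 with 7.25 TPM and Alpl with 5.64 TPM. Nt5e had a median of 1.11 TPM, Enpp1 of 1.06 TPM, Runx2 of 0.226 TPM and Abcc6 of 0.00867 TPM. Every read assigned to the 8 members was unique to its gene.

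In D2, 3 of the 7 members tested rose in CMD muscle (Mgp, Ctsk and Runx2), where 11.2% of all genes tested rose, and 1 fell (Alpl), where 9.03% of all genes fell. B6 had 2 members raised (Mgp and Ctsk) and none lowered, against 8.07% and 10.4% of all genes. In 67, Mgp, Ctsk and Enpp1 rose and none fell, against 11.4% and 10.3% of all genes. No member was called in 87 by edgeR, where 11.5% of all genes rose and 9.38% fell. There, 0 of the 7 had an unadjusted p under 0.05, against 33.9% of all genes, and DESeq2 called 0, against 23.3% of the genes to which it gave an adjusted p. The median log2 fold change of the 7 members was 1.76 in D2, 0.31 in B6, 1.31 in 67 and 0.28 in 87, beside medians of 0.03, 0.01, 0.00 and 0.01 over all genes. The shares of all genes that rose or fell in each strain also apply to the counts of cell type markers below. Calls were made with edgeR's quasi-likelihood test at an adjusted p under 0.05 (Benjamini-Hochberg over the 14789 genes), and every adjusted p in the text comes from it unless another tool is named. These p-values rest on the spread between libraries within groups, estimated for each gene over all groups together and not from the groups compared alone. In whole muscle, fewer cells of a type and less RNA per cell cannot be told apart.

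**Figure D1:**
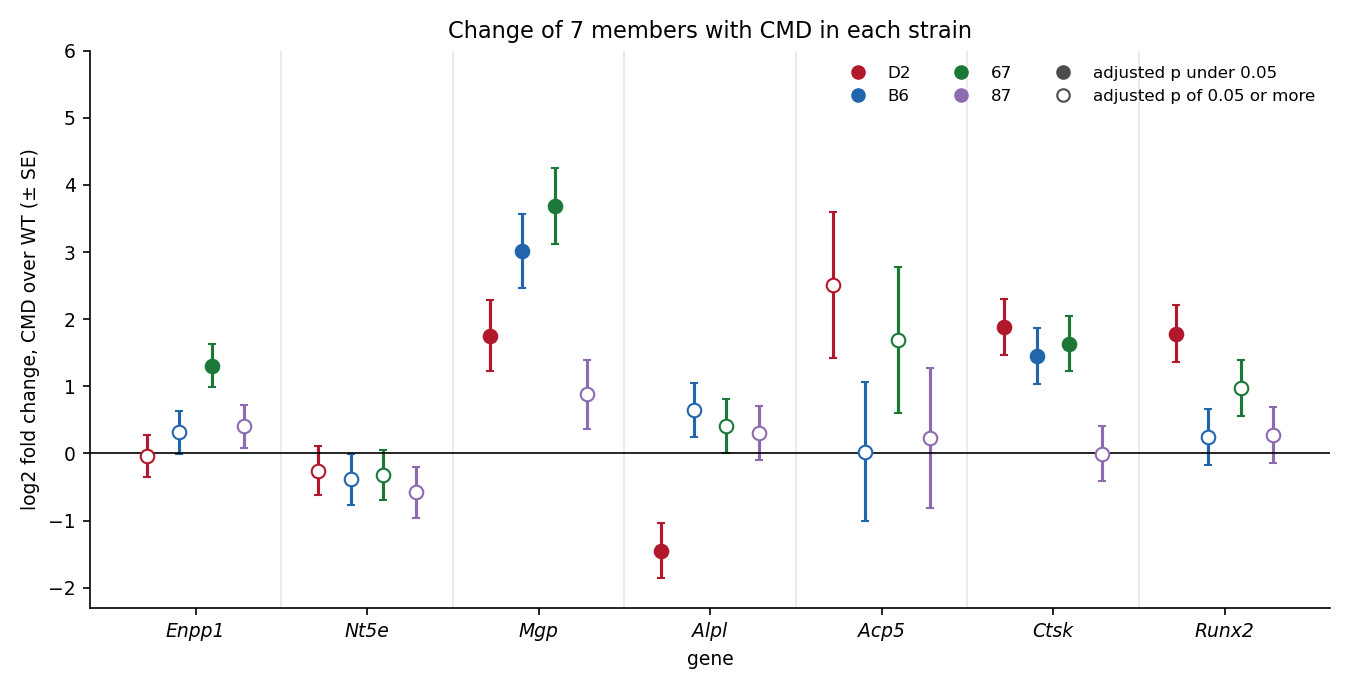
Log2 fold change of CMD over WT (vertical axis, ± SE) for the 7 members tested (horizontal axis) in D2, B6, 67 and 87, from 3 CMD and 3 WT libraries per strain. Filled points passed an adjusted p under 0.05. Mgp and Ctsk were raised in 3 strains, Enpp1 in 67 and Runx2 in D2, while Alpl was the member that fell, at -1.45 in D2.

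Abcc6, the transporter behind ATP release from liver, was close to absent from muscle, with 42 reads over the 24 libraries and 9 libraries at 0. D2 CMD had 10 reads (0, 7 and 3 in its libraries), against 0 reads in D2 WT. Per total reads of the group, not TMM-scaled, the D2 CMD level was 0.0708 CPM with an exact 95% interval of 0.0340 to 0.130, and the same interval ran from 0 to 0.0268 CPM in D2 WT. The limit that a count of 0 allows in D2 WT, taken as 3 reads, was 0.0218 CPM. The other groups held 2 reads in B6 CMD against 4 in B6 WT, 1 in 67 CMD against 8 in 67 WT, and 8 in 87 CMD against 9 in 87 WT. Of the 10 D2 CMD reads 7 came from library 23, and of the 8 reads in 87 CMD 7 came from a single library as well. The intervals cover counting error only. The filter left Abcc6 out of the test. In the fit with no filter it was not called for CMD against WT in D2 (adjusted p = 0.108) or for the CMD effect over the 4 strains (adjusted p = 0.260), and DESeq2 did not call the D2 change (adjusted p = 0.131).

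Enpp1, the enzyme that makes pyrophosphate, rose in 67. It had 6.04, 5.81 and 8.05 CPM in 67 CMD, against 2.05, 3.37 and 2.61 CPM in 67 WT. Every 67 CMD library lay above every 67 WT library, as for 22.2% of all genes tested. The log2 fold change was 1.31 ± 0.32 (mean ± SE, adjusted p = 0.00763), and the call held in all 33 alternative settings. Here and below, these settings share libraries with the main fit and are not independent of it. Some could hardly change a call, such as leaving out a library of another strain. In D2 the values were 3.54, 2.83 and 3.92 CPM in CMD, against 3.54, 3.28 and 3.79 CPM in WT, and the groups overlapped (log2 fold change -0.04 ± 0.31, adjusted p = 0.936). B6 had 4.51, 3.96 and 4.15 CPM in CMD, against 2.05, 3.20 and 4.88 CPM in WT (0.31 ± 0.32, adjusted p = 0.524). For 87 the values were 2.23, 3.88 and 3.55 CPM in CMD, against 1.24, 3.16 and 2.90 CPM in WT (0.40 ± 0.32, adjusted p = 0.400). In both strains the groups overlapped. The CMD effect on Enpp1 in D2 minus that in 67 was -1.35 ± 0.45 on the log2 scale and was not called (adjusted p = 0.137).

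Among the CMD groups, Enpp1 was highest in 67 CMD, at 6.63 ± 1.23 CPM (SD, n = 3), and did not overlap B6 CMD, the next in order at 4.21 ± 0.28 CPM. The share of all genes without overlap between these groups was not counted. Its level differed over the 4 CMD groups in the F test (adjusted p = 0.0429), but 18 of the 32 alternative settings ended that call, among them leaving out library 16 or 23 singly (adjusted p = 0.0674 and 0.0658). Both sex terms ended it as well (adjusted p = 0.0647 as labelled and 0.184 from Y-linked reads).

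Nt5e, the ectonucleotidase that makes adenosine, was called in no strain. Its log2 fold changes were -0.26 ± 0.37 in D2 (adjusted p = 0.644), -0.39 ± 0.38 in B6 (0.513), -0.32 ± 0.37 in 67 (0.582) and -0.58 ± 0.38 in 87 (0.298). All 4 estimates lay below 0 and within 2 SE of 0, but without B6 WT library 1 the B6 estimate was 0.35 (adjusted p = 0.513). In 87 the CMD libraries had 1.89, 1.54 and 1.07 CPM, against 2.05, 1.94 and 2.71 CPM in WT. These 87 groups did not overlap, as for 15.1% of all genes tested with CMD below WT. Nt5e ranked highest in D2, with 2.66 ± 0.53 CPM in D2 CMD and 3.18 ± 0.43 CPM in D2 WT, and lowest in B6 CMD with 1.41 ± 0.27 CPM, but each group overlapped its neighbour in this order.

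Mgp, the secreted inhibitor of calcification, was the member with the largest called rise. In 67 it had 159, 113 and 247 CPM in CMD, against 4.88, 24.7 and 10.9 CPM in WT. B6 CMD had 119, 159.6 and 152 CPM, against 12.9, 19.7 and 20.6 CPM in B6 WT. Every CMD library of these strains was above 100 CPM and every WT library below 25 CPM. CMD lay above WT without overlap for 22.2% of all genes in 67 and 19.7% in B6. The log2 fold changes of Mgp were 3.68 ± 0.57 in 67 (adjusted p = 0.000317) and 3.02 ± 0.55 in B6 (adjusted p = 0.00175). Both calls held in all 33 alternative settings.

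D2 CMD had 22.2, 97.6 and 36.3 CPM of Mgp, against 16.3, 12.4 and 17.5 CPM in D2 WT. The groups did not overlap, as for 21.4% of all genes with CMD above WT, and the highest value came from library 23. The log2 fold change was 1.76 ± 0.52 (adjusted p = 0.0243), and without library 23 it was 0.91 (adjusted p = 0.226). The call also ended without each of the D2 WT libraries 19, 20 and 21 (adjusted p = 0.0578, 0.102 and 0.0594), with sex as labelled (log2 fold change 1.42, adjusted p = 0.0759) and with the D2 libraries fitted alone (adjusted p = 0.0563). In 87, Mgp had 20.3, 22.1 and 41.1 CPM in CMD, against 8.34, 19.5 and 17.5 CPM in WT. The 87 CMD libraries lay above the WT libraries, as for 15.5% of all genes, with a log2 fold change of 0.88 ± 0.52 that was not called (adjusted p = 0.240). With sex taken from Y-linked reads it was 1.38 and was called (adjusted p = 0.0339).

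The level of Mgp differed over the 4 CMD groups (F test, adjusted p = 0.00334). D2 CMD was below B6 CMD by 1.46 ± 0.52 on the log2 scale (D2 minus B6, -1.46, adjusted p = 0.0493) and below 67 CMD (D2 minus 67, -1.73 ± 0.52, adjusted p = 0.0371), comparisons in which 10.4% and 6.19% of all genes were lower in D2. The first call ended in 17 of the 32 alternative settings and the second in 6. Against 87 CMD, D2 CMD was higher by 0.90 ± 0.51, which was not called (adjusted p = 0.177). The difference was 0.04 without library 23 and -0.14 without libraries 16 and 23. In healthy muscle Mgp lay at 15.4 ± 2.67 CPM in D2 WT, 17.7 ± 4.24 CPM in B6 WT, 13.5 ± 10.1 CPM in 67 WT and 15.1 ± 5.94 CPM in 87 WT. These WT groups overlapped, and the F test over them gave an adjusted p of 0.955. The CMD effect on Mgp was not called as different between strains (F test, adjusted p = 0.0741), although DESeq2 called it (adjusted p = 0.00731), as did the fit without library 23 (adjusted p = 0.0212).

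Markers of tendon and cartilage, tissues where matrix Gla protein is abundant, moved with Mgp in part. The sum of 11 such markers was 327 to 715 CPM in D2 CMD against 106 to 288 CPM in D2 WT, 373 to 635 CPM in B6 CMD against 112 to 264 CPM in B6 WT, and 459 to 680 CPM in 67 CMD against 125 to 283 CPM in 67 WT. In 87 it was 34.9 to 129 CPM in CMD against 83.6 to 192 CPM in WT. Of the 10 markers tested, 2 rose in D2, 3 in B6 and 4 in 67, and in 87 none rose and 1 fell. At most 2 of the 11 markers were at 0 in a library, and their part in the Mgp result was not tested.

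**Figure D2:**
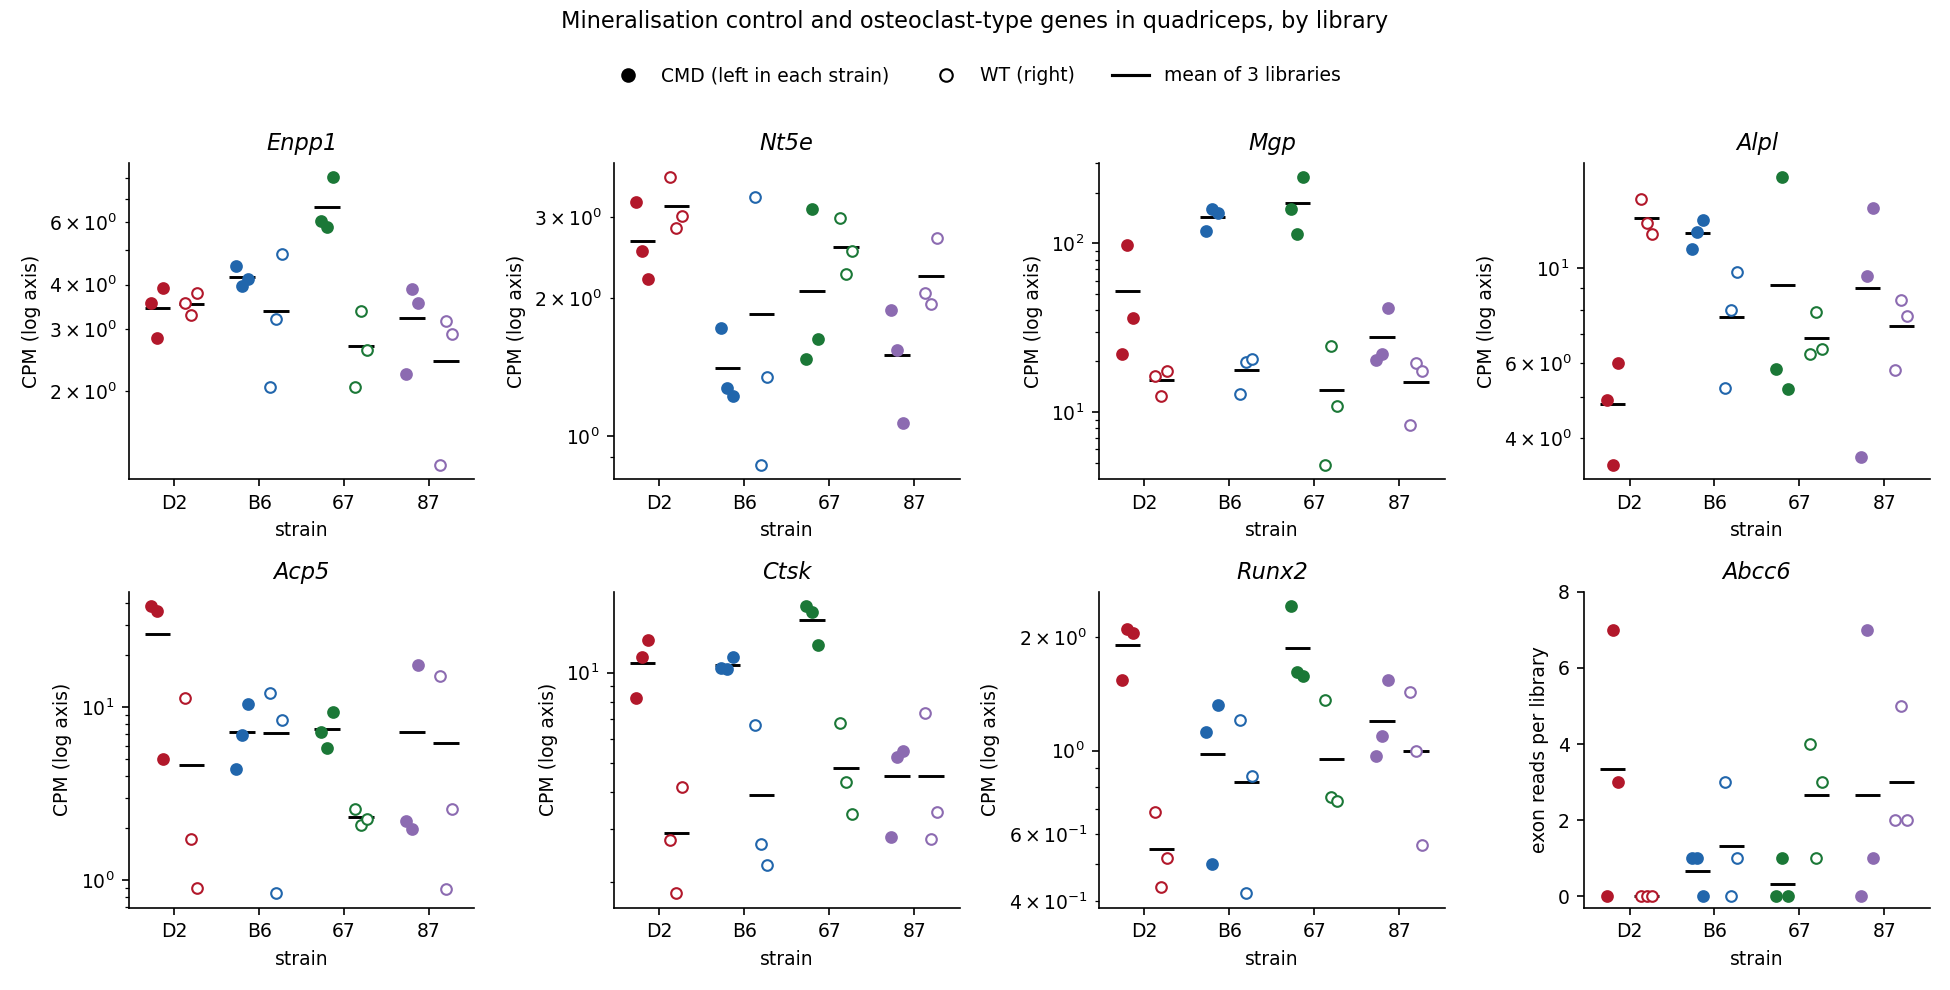
Levels of the 8 members in each library, as CPM on log axes (Abcc6 as exon reads on a linear axis), by strain, with CMD filled and at the left and WT open and at the right. Black bars are means of 3 libraries. Mgp and Ctsk stood higher in every CMD than in every WT library of D2, B6 and 67, Alpl in D2 CMD lay below all D2 WT libraries, and Acp5 spread over more than 10-fold within D2 WT, B6 WT and 87 WT.

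Alpl encodes the phosphatase that breaks down pyrophosphate and is a marker of bone-forming cells and of capillary endothelium. In D2 it fell, with 4.92, 3.47 and 6.01 CPM in CMD, against 14.5, 12.8 and 12.05 CPM in WT. The D2 groups did not overlap, as for 21.5% of all genes with CMD below WT, with a log2 fold change of -1.45 ± 0.41 (adjusted p = 0.0178). The change was -1.28 without library 23 and was then not called (adjusted p = 0.0771), and the other 32 alternative settings kept the call. In B6, Alpl had 11.1, 12.2 and 12.96 CPM in CMD, against 5.24, 7.98 and 9.80 CPM in WT. The B6 CMD libraries lay above the WT libraries, as for 19.7% of all genes, and the log2 fold change of 0.65 ± 0.40 was not called (adjusted p = 0.270).

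For 67 the Alpl values were 5.82, 16.4 and 5.21 CPM in CMD, against 6.29, 7.89 and 6.47 CPM in WT (0.41 ± 0.40, adjusted p = 0.501). In 87 they were 3.62, 9.58 and 13.8 CPM in CMD, against 5.77, 8.45 and 7.73 CPM in WT (0.30 ± 0.40, adjusted p = 0.642). In both strains the groups overlapped, and 67 CMD library 11 was far above the other libraries of its group. Without it the 67 change was -0.32 (adjusted p = 0.608), and without library 18 the 87 change was -0.17 (adjusted p = 0.810). The CMD effect in D2 differed from that in B6 (D2 minus B6, -2.10 ± 0.57 on the log2 scale, adjusted p = 0.0448), where 3.62% of all genes were called, and 15 of the 32 alternative settings ended this call, among them leaving out library 23 (-1.97, adjusted p = 0.0820). It was -1.86 ± 0.57 for D2 minus 67 (adjusted p = 0.107) and -1.75 ± 0.57 for D2 minus 87 (adjusted p = 0.0634). Both were called by DESeq2 (adjusted p = 0.0350 and 0.0220) and without library 16 (adjusted p = 0.0364 and 0.0140). Without library 11 the difference from 67 was -1.13 (adjusted p = 0.326), and that from 87 was called (adjusted p = 0.0286). The F test over the 4 strains was not called (adjusted p = 0.0793), but was by DESeq2 (adjusted p = 0.0121) and without library 16 (adjusted p = 0.0203). These differences share the D2 libraries.

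Alpl was highest in D2 WT (13.1 ± 1.27 CPM) and lowest in D2 CMD (4.80 ± 1.27 CPM), and D2 CMD did not overlap 67 WT, its neighbour in the order (6.89 ± 0.87 CPM). The share of all genes without overlap between D2 CMD and 67 WT was not counted. D2 CMD was below B6 CMD (D2 minus B6, -1.33 ± 0.41, adjusted p = 0.0250), a call that ended without library 5, 6, 22 or 23. Without library 16 it was also below 87 CMD (D2 minus 87, -1.33, adjusted p = 0.0144). The sum of 8 mural cell markers (pericytes and vascular smooth muscle) was 441 to 511 CPM in D2 CMD, against 644 to 693 CPM in D2 WT. In 87, where Alpl did not fall, it was 337 to 498 CPM in CMD against 548 to 694 CPM in WT. The mural sums of CMD and WT overlapped in B6 (544 to 682 and 539 to 628 CPM) and 67 (415 to 641 and 526 to 605 CPM). For 8 endothelial markers the sum was 231 to 277 CPM in D2 CMD, against 255 to 328 CPM in D2 WT. It was 258 to 312 CPM in B6 CMD against 215 to 218 CPM in B6 WT, and overlapped in 67 and 87. Of these markers 1 mural gene rose and 1 fell, and 1 endothelial gene fell, in D2, and none was at 0 in any library. In D2 the median log2 fold change was 0.06 for the mural markers and -0.05 for the endothelial markers, against 0.03 over all genes. The D2 mural markers thus did not fall as a set, although their sum did. In 87 the mural median was -0.25, against 0.01 over all genes. Over the 24 libraries log2 Alpl and the log2 mural sum had a Pearson correlation of 0.67, and 0.83 after the group means were removed, as a description of values that share libraries and depth. The mural sum gave the highest values of the marker sums compared with Alpl. With the endothelial sum they were 0.60 and 0.68, and with the tendon and cartilage sum 0.20 and 0.59. The part of these cells in the Alpl result was not tested.

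Runx2, the transcription factor of bone formation, was the member with the lowest level among those tested, with 14 to 122 reads per library. In D2 it had 1.54, 2.11 and 2.05 CPM in CMD, against 0.690, 0.434 and 0.520 CPM in WT. All D2 CMD libraries were more than 2-fold above all D2 WT libraries. CMD lay above WT without overlap for 21.4% of all genes in D2, and the share with a 2-fold gap was not counted. The log2 fold change was 1.79 ± 0.42 (adjusted p = 0.00716), and the call held in all 33 alternative settings. In 67 the values were 2.42, 1.61 and 1.58 CPM in CMD, against 1.36, 0.753 and 0.734 CPM in WT. The 67 groups did not overlap, as for 22.2% of all genes with CMD above WT. The log2 fold change of 0.97 ± 0.41 was not called (adjusted p = 0.0991), but was called with sex as labelled (1.30, adjusted p = 0.00580) and with sex from Y-linked reads (1.25, adjusted p = 0.0165).

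B6 CMD had 1.12, 0.501 and 1.32 CPM of Runx2, against 1.21, 0.419 and 0.856 CPM in B6 WT (0.25 ± 0.42, adjusted p = 0.729). 87 CMD had 0.970, 1.10 and 1.54 CPM, against 1.43, 0.999 and 0.562 CPM in 87 WT (0.28 ± 0.41, adjusted p = 0.687). Both pairs of groups overlapped. The CMD effect in D2 minus that in B6 was 1.54 ± 0.60 (adjusted p = 0.172) and in D2 minus 87 was 1.51 ± 0.59 (adjusted p = 0.119), and neither was called. With sex as labelled the first was 2.40 (adjusted p = 0.00707) and the second 2.29 (adjusted p = 0.00308), both called, and so was the F test over the 4 strains (adjusted p = 0.00895, against 0.233 with no sex term). No other alternative setting called any of these, sex from Y-linked reads included. In 4 D2 libraries the sex label goes against those reads. Across groups Runx2 was highest in D2 CMD (1.90 ± 0.31 CPM) and 67 CMD (1.87 ± 0.47 CPM), which overlapped, and lowest in D2 WT (0.548 ± 0.130 CPM), which overlapped B6 WT (0.828 ± 0.396 CPM).

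Ctsk encodes cathepsin K, the collagen-cutting protease of osteoclasts, which fibroblasts also make. It rose in 3 strains. In D2 it had 8.27, 11.3 and 12.8 CPM in CMD, against 2.76, 1.83 and 4.16 CPM in WT. In 67 it had 16.7, 15.9 and 12.4 CPM in CMD, against 6.77, 4.32 and 3.37 CPM in WT. Neither strain had any overlap, as for 21.4% of all genes in D2 and 22.2% in 67 with CMD above WT. The log2 fold changes were 1.88 ± 0.42 in D2 (adjusted p = 0.00477) and 1.64 ± 0.41 in 67 (adjusted p = 0.00871), and both calls held in all 33 alternative settings. In B6 it had 10.4, 10.3 and 11.2 CPM in CMD, against 6.72, 2.69 and 2.28 CPM in WT. The B6 CMD libraries were close to each other and above all WT libraries, as for 19.7% of all genes (1.45 ± 0.41, adjusted p = 0.0204). The B6 call ended without library 2 (1.26, adjusted p = 0.0944), 3 (1.19, adjusted p = 0.0906), 5 (1.49, adjusted p = 0.0517) or 6 (1.41, adjusted p = 0.0520).

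In 87 Ctsk had 2.83, 5.25 and 5.48 CPM in CMD, against 7.36, 2.78 and 3.44 CPM in WT. The groups overlapped and their means were alike, 4.52 ± 1.47 CPM in CMD and 4.53 ± 2.48 CPM in WT (log2 fold change 0.00 ± 0.41, adjusted p = 0.998). The CMD effect in D2 minus that in 87 was 1.88 ± 0.58 on the log2 scale, with an adjusted p of 0.0501, just outside the threshold. Of the 32 alternative settings 11 put it inside, with adjusted p from 0.000355 (sex as labelled) to 0.186 over all of them. The level of Ctsk differed over the 4 CMD groups (F test, adjusted p = 0.0231), and D2 CMD was above 87 CMD (D2 minus 87, 1.25 ± 0.41, adjusted p = 0.0235), as were 17.3% of all genes. Without library 16 neither call held (adjusted p = 0.0977 for the F test and 0.114 for D2 minus 87). The difference from 87 CMD was also lost without library 23 (adjusted p = 0.0565), without library 24 (adjusted p = 0.0875) and with the CMD libraries compared fitted alone (adjusted p = 0.0830).

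Fibroblast and macrophage markers moved with Ctsk in part. The sum of 11 fibroblast markers was 1177 to 1811 CPM in D2 CMD against 533 to 907 CPM in D2 WT, 1150 to 1313 CPM in B6 CMD against 495 to 1082 CPM in B6 WT, 1031 to 1445 CPM in 67 CMD against 573 to 864 CPM in 67 WT, and 188 to 728 CPM in 87 CMD against 695 to 890.5 CPM in 87 WT. Of the 11, 2 rose in D2, 3 in B6, 5 in 67 and none in 87, where 3 fell. The sum of 12 macrophage markers was 128 to 423 CPM in D2 CMD against 81.0 to 139 CPM in D2 WT, and 190.0 to 256 CPM in B6 CMD against 75.0 to 222 CPM in B6 WT, so that both pairs overlapped. It was 193 to 294 CPM in 67 CMD against 82.7 to 133 CPM in 67 WT, without overlap, and 106 to 192 CPM in 87 CMD against 106 to 189 CPM in 87 WT. Of the macrophage markers 6 of the 12 rose in D2, 2 in B6, 6 in 67 and 1 in 87. No marker of either list was at 0 in any library. Log2 Ctsk and the log2 fibroblast sum had a Pearson correlation of 0.79 over the 24 libraries and of 0.78 after group means were removed. With the macrophage sum the values were 0.79 and 0.53. The part of these cells in the Ctsk result was not tested.

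Acp5 encodes tartrate-resistant acid phosphatase, the classical stain for osteoclasts, which some macrophages also make. It varied more within groups than any other member tested, with SEs of 1.04 to 1.09 on the log2 scale. D2 CMD had 38.4, 35.7 and 4.997 CPM, against 11.2, 1.74 and 0.895 CPM in D2 WT. These groups overlapped, since D2 CMD library 24 lay below D2 WT library 19, and the log2 fold change of 2.51 ± 1.09 was not called (adjusted p = 0.104). It was called without library 19 (4.28, adjusted p = 0.0309) and with sex as labelled (3.69, adjusted p = 0.0187). With sex from Y-linked reads it was not called. In 67 the values were 7.22, 5.79 and 9.37 CPM in CMD, against 2.59, 2.09 and 2.26 CPM in WT. The 67 groups were tight and did not overlap, as for 22.2% of all genes with CMD above WT. With the spread shared over all 8 groups the log2 fold change of 1.69 ± 1.09 was not called (adjusted p = 0.286), and with the 67 libraries fitted alone it was (1.70, adjusted p = 0.00200).

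B6 CMD had 4.41, 6.89 and 10.4 CPM of Acp5, against 12.02, 0.837 and 8.40 CPM in B6 WT (0.03 ± 1.04, adjusted p = 0.987). 87 CMD had 2.20, 1.97 and 17.5 CPM, against 15.1, 0.891 and 2.56 CPM in 87 WT (0.23 ± 1.04, adjusted p = 0.907), and over the alternative settings the 87 estimate ran from -1.55 to 2.06. In 87 both groups held a high library and low ones, and in B6 the WT libraries spread more widely than the CMD libraries. No pair of neighbouring groups in the order of Acp5 levels was without overlap, from D2 CMD (26.4 ± 18.6 CPM) down to 67 WT (2.31 ± 0.25 CPM).

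The libraries with high Acp5 were those rich in fat cell transcripts. The sum of 8 adipocyte markers, listed after the spread of Acp5 had been seen, was 2514, 3013 and 156 CPM in D2 CMD, against 746, 198 and 200 CPM in D2 WT, in the order of the libraries above. In 87 CMD it was 951, 291 and 1645 CPM, against 1161, 162 and 267 CPM in 87 WT. The highest Acp5 value of each of these groups fell in its library with the highest sum, except in D2 CMD, where libraries 22 and 23 were close in both. Library 16 of 87 CMD had a sum of 951 CPM with 2.20 CPM of Acp5, and library 24 of D2 CMD had the lowest sum of its group with 4.997 CPM. Of the 8 markers 1 rose in D2 and none in the other strains, and none was at 0 in any library. Log2 Acp5 and the log2 sum had a Pearson correlation of 0.89 over the 24 libraries and of 0.90 after group means were removed. These were the highest values of the marker sums compared with Acp5. With the macrophage sum they were 0.62 and 0.41, and with the sum of the other osteoclast genes below -0.33 and -0.44. The part of fat cells in the Acp5 result was not tested.

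**Figure D3:**
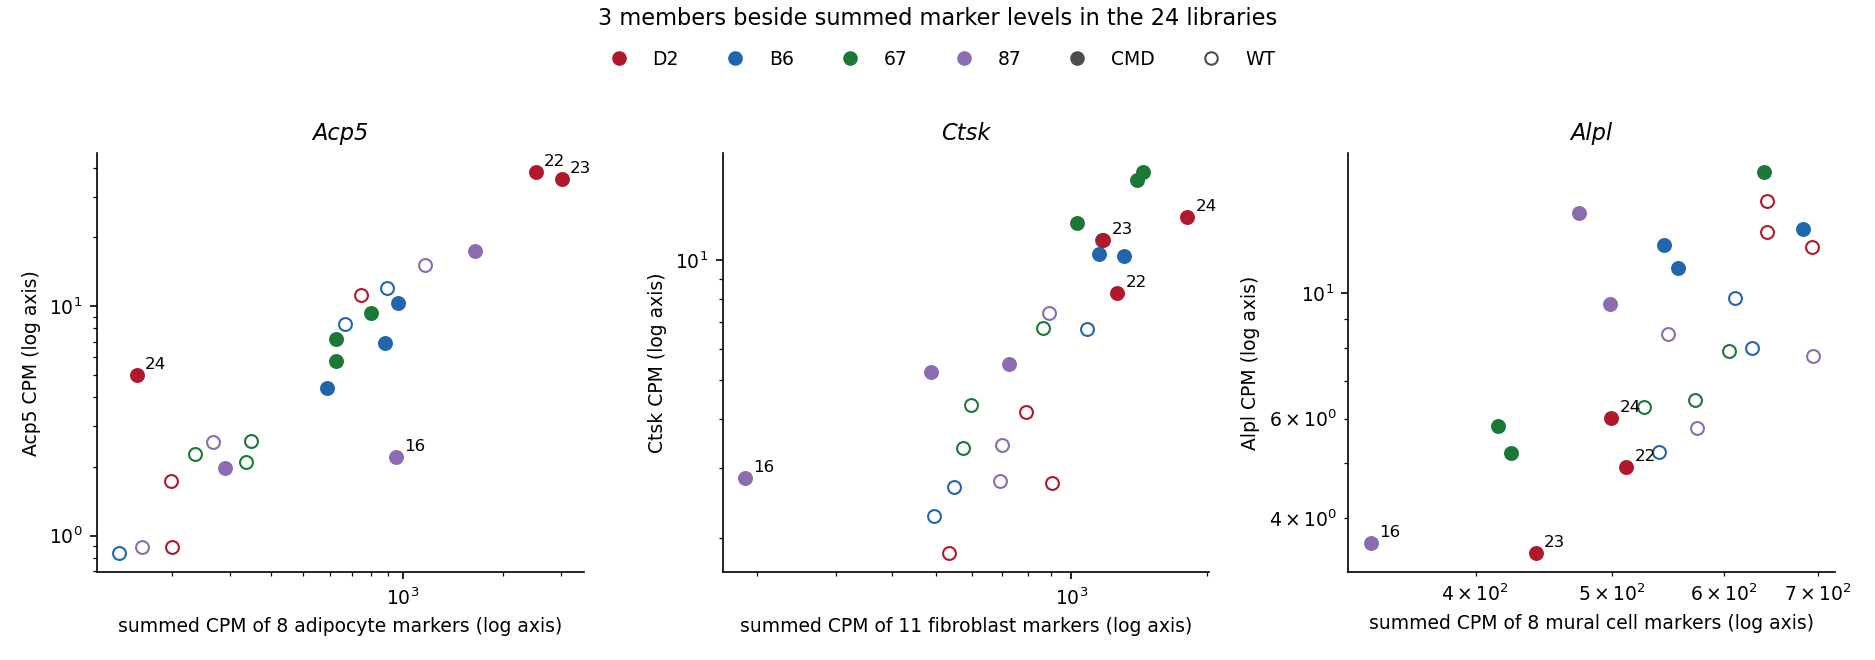
CPM of Acp5, Ctsk and Alpl (vertical axes) against the summed CPM of adipocyte, fibroblast and mural cell markers (horizontal axes), all on log axes, with 1 point per library, CMD filled and WT open. Libraries 16, 22, 23 and 24 are numbered. Acp5 reached 38.4 and 35.7 CPM in libraries 22 and 23, where the adipocyte sum was 2514 and 3013 CPM.

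The name osteoclast-type was set against 18 other osteoclast genes, which did not behave alike. Siglec15, a receptor of osteoclast fusion, had 0 reads in the 24 libraries. Tnfsf11, the ligand that drives osteoclast formation and is made by other cells, had 12 reads in all, and Dcstamp, needed for osteoclast fusion, had 33. Calcr, the calcitonin receptor, which muscle stem cells also carry, averaged 0.0956 ± 0.0578 CPM in D2 CMD and 0.275 ± 0.146 CPM in D2 WT, and was not called (-1.48, adjusted p = 0.184). Summed over the 18 genes the level was 118 to 174 CPM in D2 CMD and 161 to 165 CPM in D2 WT. Between 1 and 5 of the 18 were at 0 in each library.

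Of the 15 osteoclast genes tested, 1 rose and 2 fell in D2, 1 rose in B6, 1 rose in 67 and 3 rose in 87, with median log2 fold changes of -0.04, -0.04, 0.12 and -0.02. The list also holds regulators such as Tnfrsf11b, which restrains osteoclast formation and was the gene raised in B6. These counts therefore do not measure osteoclasts. Of all genes tested, 11.2% rose and 9.03% fell in D2, and 8.07% rose and 10.4% fell in B6. The shares were 11.4% and 10.3% in 67 and 11.5% and 9.38% in 87. Car2, a carbonic anhydrase that osteoclasts use to make acid, fell in D2 to 3.22 ± 0.60 CPM in CMD, against 12.4 ± 1.24 CPM in WT (-1.95, adjusted p = 0.000715). In 87 it rose, at 10.5 ± 0.74 CPM in CMD and 4.87 ± 1.60 CPM in WT (1.11, adjusted p = 0.0189), and its CMD effect differed between strains (F test, adjusted p = 0.00401). Tcirg1, a subunit of the proton pump that acidifies the resorption space, rose in D2, at 16.95 ± 5.08 CPM in CMD and 6.49 ± 1.03 CPM in WT (1.39, adjusted p = 0.000565), and in 67 (0.64, adjusted p = 0.0475). Its CMD effect also differed between strains (F test, adjusted p = 0.0310). Ostm1, the partner of the lysosomal chloride channel, fell in D2 (-0.77, adjusted p = 0.00909).

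Tnfrsf11b, the decoy receptor osteoprotegerin that restrains osteoclast formation, rose in B6 (2.22, adjusted p = 0.0326) and 87 (2.32, adjusted p = 0.0370), at 0.861 ± 0.386 CPM in B6 CMD and 0.181 ± 0.0984 CPM in B6 WT. Atp6v0d2, a proton pump subunit, was called in 87 (4.21, adjusted p = 0.0214), where a single CMD library reached 12.6 CPM. Without library 16 the 87 change was 0.36 (adjusted p = 0.849). In D2 Atp6v0d2 had 109 reads over D2 CMD, against 4 reads over D2 WT, and its log2 fold change of 4.29 was not called (adjusted p = 0.0560), but was called in 8 alternative settings, among them without library 16 (adjusted p = 0.00869). In 67 it had 1.26 ± 0.61 CPM in CMD and 0.145 ± 0.063 CPM in WT (3.09, adjusted p = 0.0912), also called without library 16 (adjusted p = 0.0187).

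Among the 11 genes tested on the bone-forming list, 3 rose and 1 fell in D2, 2 rose in B6, 3 rose in 67 and 2 rose in 87, with median log2 fold changes of 0.63, -0.17, 0.63 and 0.31. The shares of all genes are those given beside the osteoclast genes. Sox9, the transcription factor of cartilage, rose in all 4 strains, by 2.10 in D2 (adjusted p = 0.000684), 1.85 in B6 (adjusted p = 0.00225), 2.22 in 67 (adjusted p = 0.000393) and 2.97 in 87 (adjusted p = 5.06e-05). It reached 5.33 ± 2.48 CPM in D2 CMD, against 1.24 ± 0.35 CPM in D2 WT. Dmp1, a matrix phosphoprotein of osteocytes, rose in all 4 as well, by 1.79 in D2 (adjusted p = 0.0291), 2.98 in B6 (0.00395), 2.18 in 67 (0.0159) and 3.17 in 87 (0.00207). Without libraries 16 and 23 the D2 change of Dmp1 was 1.28 and not called (adjusted p = 0.0744).

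Col10a1, the collagen of mineralising cartilage, rose in D2 at a very low level, with 123 reads over D2 CMD, against 4 reads over D2 WT (4.46, adjusted p = 0.00935). Bmp6, a bone morphogenetic protein, fell in D2 (-0.83, adjusted p = 0.0221, and 0.0598 without library 23), and Bmp2, another, rose in 67 (1.06, adjusted p = 0.0203). Genes that define mature osteoblasts were not measurable. Bglap and Bglap2, which encode osteocalcin, had 0 reads in the 24 libraries, Ibsp, bone sialoprotein, had 7, and Sp7, the factor that acts after RUNX2, had 22.

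Of 16 other mineral regulators tested, 1 rose and 1 fell in D2, 2 rose and 1 fell in B6, 3 rose and 1 fell in 67, and 3 rose and 4 fell in 87. Their median log2 fold changes were 0.11, 0.22, 0.34 and 0.02. Shares of all genes that rose or fell are again those given beside the osteoclast genes. Spp1, osteopontin, a secreted phosphoprotein that inhibits crystal growth, rose in all 4 strains, at 7.87 ± 5.53 CPM in D2 CMD and 1.86 ± 0.48 CPM in D2 WT (2.08, adjusted p = 0.00952). Its change was 2.64 in B6 (adjusted p = 0.00436), 4.34 in 67 (adjusted p = 0.000165) and 2.40 in 87 (adjusted p = 0.00637), and without libraries 16 and 23 that in D2 was 1.39 and not called (adjusted p = 0.0621). Xpr1, the phosphate exporter, fell in B6 (-1.68, adjusted p = 0.000429), 67 (-1.38, adjusted p = 0.000886) and 87 (-1.39, adjusted p = 0.000888), at 48.5 ± 11.4 CPM in B6 CMD and 155 ± 27.0 CPM in B6 WT. In D2 it had 64.2 ± 19.5 CPM in CMD and 99.0 ± 22.4 CPM in WT and was not called (-0.63, adjusted p = 0.0735), but was without library 16 (-0.67, adjusted p = 0.0439). Ank, the pyrophosphate transporter, fell in D2 (-0.58, adjusted p = 0.00591).

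**Figure D4:**
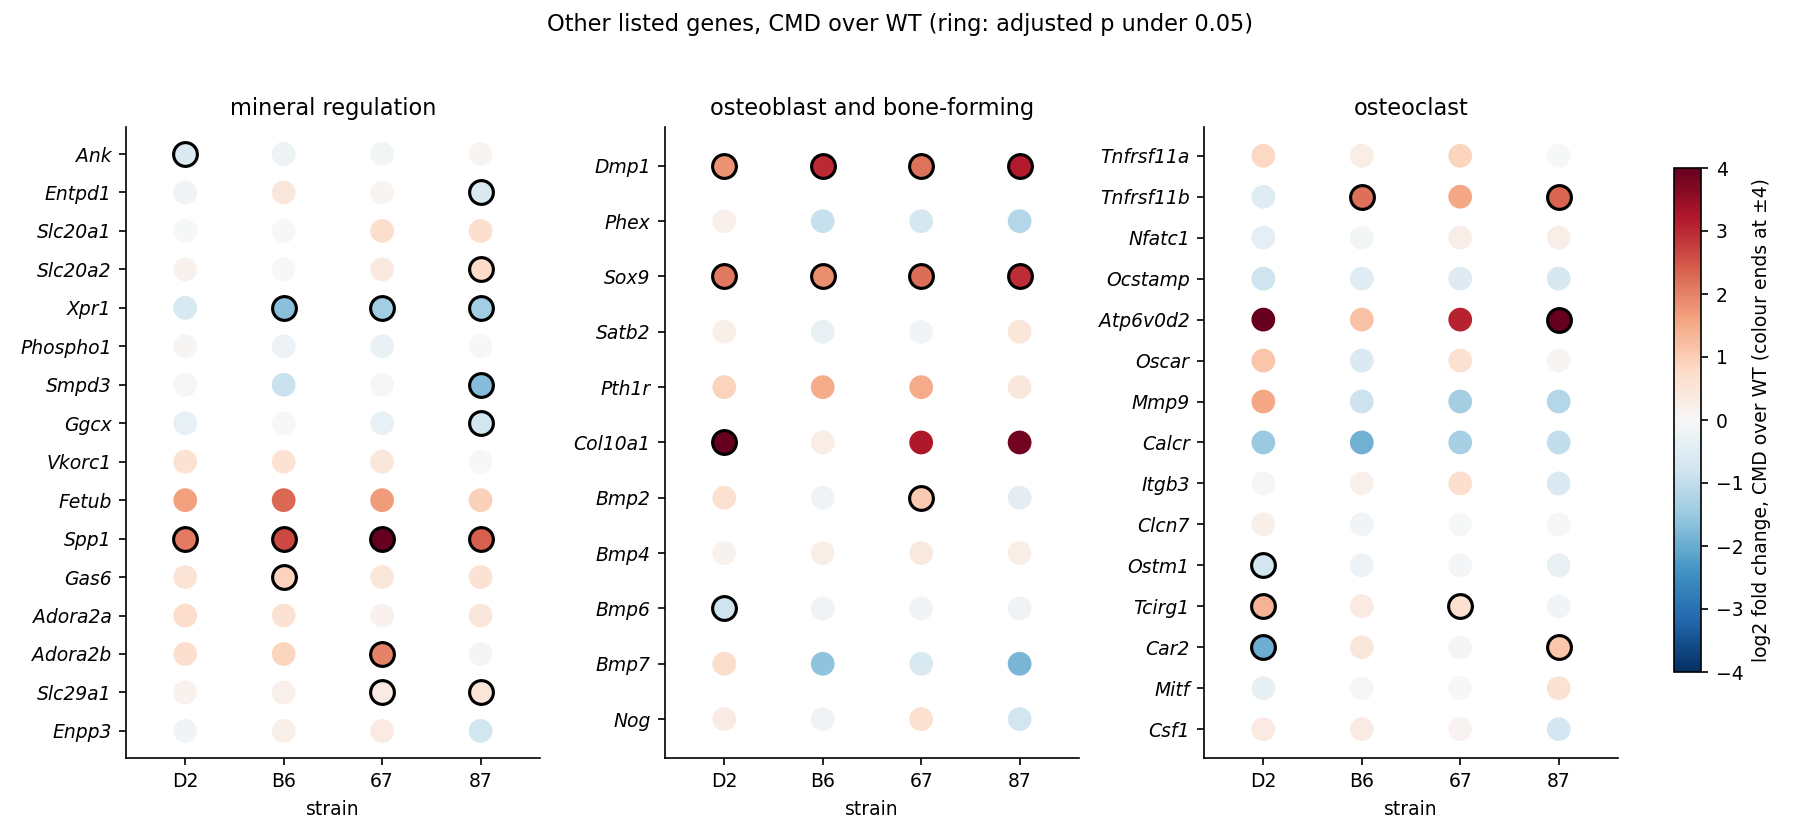
Log2 fold change of CMD over WT (colour, red higher in CMD) for the tested genes of the mineral regulation, bone-forming and osteoclast lists (rows) in D2, B6, 67 and 87 (columns), with a ring where the adjusted p was under 0.05. Spp1, Sox9 and Dmp1 carry a ring in every strain, Xpr1 in B6, 67 and 87, and Car2 a falling ring in D2 and a rising one in 87.

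In healthy muscle no member was called as different between strains. In the F test over the 4 WT groups edgeR called 0 of the 7 members tested, where 8.66% of all genes were called. At an unadjusted p under 0.05 the count was also 0, against 23.3% of all genes, and DESeq2 called 0, against 13.6% of the genes to which it gave an adjusted p. Closest was Alpl, at 13.1 ± 1.27 CPM in D2 WT, against 7.67 ± 2.30 CPM in B6 WT, 6.89 ± 0.87 CPM in 67 WT and 7.32 ± 1.39 CPM in 87 WT (adjusted p = 0.299). D2 WT lay above every other WT group without overlap, a pattern whose share over all genes was not counted. The WT libraries fitted alone gave an adjusted p of 0.0311, and the other 31 of the 32 alternative settings made no call. Among the CMD groups the F test called 3 of the 7 (Mgp, Ctsk and Enpp1), where 28.3% of all genes were called. Without library 16 it called Alpl (adjusted p = 0.0246) and did not call Ctsk or Enpp1 (adjusted p = 0.0977 and 0.0674). For the CMD effect over the 4 strains edgeR called 0, where 4.67% of all genes were called. At an unadjusted p under 0.05 there were 4 (Mgp, Alpl, Ctsk and Enpp1), against 22.3% of all genes, and DESeq2 called 3, against 12.2% of the genes to which it gave an adjusted p.

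Each member had its own nearest genes by Pearson correlation of log2 CPM over the 24 libraries, which share group and depth. For Mgp these were Cygb (0.90), C1qtnf3 (0.89) and Col8a1 (0.87), and for Ctsk Mmp2 (0.92), Cdkn2a (0.92) and Anxa1 (0.92). Those of Acp5 were Cebpa (0.96), Rbm47 (0.95) and Plin1 (0.95), of which Plin1, the coat protein of fat droplets, is also one of the adipocyte markers above. Alpl was nearest to Nsun4 (0.87), Tmem218 (0.85) and Ccdc51 (0.85), and Runx2 to Katnal2 (0.83), Fst (0.80) and Ltbp1 (0.79). Enpp1 was nearest to Dusp22 (0.79), Cdkl3 (0.77) and Lzts1 (0.76), and Nt5e to Gapdhrt (0.67), Itga2 (0.66) and Zfp3 (0.66). Between members the highest values were 0.74 for Enpp1 with Mgp, 0.74 for Ctsk with Runx2 and 0.69 for Mgp with Ctsk.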

How the data were processed

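Per the labels' protocols, TRIzol RNA was turned into stranded mRNA libraries with an Illumina kit and read on a NextSeq instrument as pairs of 58 bp. The builds named are GRCm39 and mm39, per the submitters' processing notes, and no source used here names the aligner or counter. The authors deposited, per gene, raw counts as total exon reads (all reads) and unique exon reads. They also deposited TPM, scaled by exon length to a fixed library sum and used here for levels between genes only, and RPKM, which was not used. Promoter sequences came from RefSeq tables.

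Total exon reads were filtered with filterByExpr (minimum count 10, minimum total count 15) and fitted in edgeR 4.0.16 (R 4.3.3) with TMM normalisation, 1 term per group over 24 libraries and glmQLFTest. Sex was left out, because Y-linked reads (male above 5 CPM) went against 4 labels. P-values were adjusted by Benjamini-Hochberg over 14789 genes, with a threshold of 0.05. Contrasts compared CMD with WT in each strain, the CMD effect between strains, and the strains within WT and within CMD. Correlations used log2 CPM with a prior count of 2. The labels give the 3 libraries of a group as separate samples but do not say that each came from its own mouse, so p-values measure only the spread between these samples. No library was identical to another.

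Alternatives were sex as labelled, sex from Y-linked reads, RLE factors, no filter, DESeq2 1.42.0, unique reads, only the libraries compared, libraries 16 and 23 left out, each library left out, and an added minimum of 1 for the absolute log2 fold change. They are not independent checks. For the members unique and total reads were equal, and the added minimum uses the main fit. Most single libraries left out belong to strains other than the one compared. The members, lists and tests were chosen with earlier results of these data known, and the adipocyte list after Acp5 had been seen. Named genes were the 8 members, the 3 most alike genes of each, Lama2, the listed gene with the largest called change in each strain, and any gene of the mineral, bone-forming and osteoclast lists. Not every gene the rule allows is reported. The fit was also run on counts simulated from its own estimates of the spread. Those counts held no outlying libraries and no sex effect, so that run does not vouch for the fit on these data.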

Additional observations from a re-analysis of the deposited data

Results flagged for a closer look

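The CMD effect on Alpl was lower in D2 than in B6, with a difference of -2.10 on the log2 scale (edgeR's quasi-likelihood test of the difference, adjusted p = 0.0448). This call ended in 15 of the 32 alternative settings, among them sex as labelled (adjusted p = 0.0626) and leaving out library 23 (adjusted p = 0.0820). Alpl fell in D2 CMD and lay higher, without a call, in B6 CMD. The change was called in D2 and not in the other 3 strains. Without library 23 the D2 change was not called either (adjusted p = 0.0771). The differences from 67 and 87 were not called by edgeR, but DESeq2 called both (adjusted p = 0.0350 and 0.0220), as did edgeR without library 16 (adjusted p = 0.0364 and 0.0140).

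The CMD effect on Car2 differed over the 4 strains (F test, adjusted p = 0.00401). It was lower in D2 than in B6 (-2.39, adjusted p = 0.00662), 67 (-1.86, adjusted p = 0.0463) and 87 (-3.06, adjusted p = 0.000940). Levels differed over the WT groups (F test, adjusted p = 0.0279), and D2 CMD stood below B6 CMD (-1.33, adjusted p = 0.00646) and 87 CMD (-1.71, adjusted p = 0.000832).

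The CMD effect on Tcirg1 differed over the 4 strains as well (F test, adjusted p = 0.0310). It was higher in D2 than in 87 (1.51, adjusted p = 0.00549). In CMD muscle D2 was above B6 (0.92, adjusted p = 0.00620), 67 (0.85, adjusted p = 0.0182) and 87 (1.29, adjusted p = 0.000442).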

How the results depend on the processing

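No paired analysis was possible because the library numbers of different groups do not coincide. No value changed sign while called. Of the log2 values of single genes under another setting, 6021 kept their direction and side of the threshold, 188 that were not called under either setting changed sign, 248 lost the call and 101 gained it. Of the F tests 621 kept their side of the threshold, 20 lost the call and 24 gained it. Requiring a log2 fold change of at least 1 left 1413 of 2986 genes in D2, 932 of 2724 in B6, 1504 of 3210 in 67 and 1289 of 3083 in 87. With only the libraries compared, 355 genes were called in 87, and 1776 of 4184 over the CMD groups. Over the CMD effects the count was 690 genes, 1555 with sex as labelled and 1740 with DESeq2. Over the WT groups it was 1281 genes, 2189 with DESeq2 and 2014 without libraries 16 and 23.

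Members called over the CMD effects numbered 3 with sex as labelled, 1 with sex from Y-linked reads, 3 with DESeq2 and 1 without libraries 16 and 23, against 0. Over the WT groups 1 was called with sex as labelled and 1 with only the libraries compared, against 0. Over the CMD groups 1 of 3 was left without libraries 16 and 23, and in 87 1 was called with sex from Y-linked reads. The causes were not tested.

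With each library left out in turn, genes called ran from 1511 (without library 20) to 4268 (16) in D2, 1139 (2) to 3798 (16) in B6, 1921 (9) to 4245 (16) in 67 and 1832 (15) to 3741 (17) in 87. The range was 356 (21) to 1168 (18) for the CMD effects, 562 (21) to 1963 (16) over WT and 2388 (24) to 5276 (18) over CMD. Members called ran from 2 (without library 23) to 4 in D2, from 1 to 2 in B6, from 0 to 2 over the CMD effects, from 0 to 1 over WT and from 2 to 4 over CMD, and stayed at 3 in 67 and 0 in 87. Depth limits Abcc6, with 42 reads in all, and Runx2, with 14 to 122 reads per library.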
